A study of Mus musculus with 23 samples.

Results

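The 9 genes described here take iron into the cell, store it, export it or sense it, and were chosen by their symbols out of 24411 in the count table: Tfrc, Slc11a2, Hfe, Fth1, Ftl1, Ncoa4, Slc40a1, Aco1 and Ireb2. All 9 were found, and all 9 passed the filter on low counts in every comparison. They were measured by sequencing of polyadenylated RNA from cells of the cerebral cortex of 70-day-old mice, bound with magnetic beads (MACS) through the astrocyte surface antigen ACSA-2. Every mouse carried floxed alleles of Aldh7a1, a mitochondrial and cytosolic aldehyde dehydrogenase, and 4-hydroxytamoxifen was injected on postnatal days 3 and 4. The cKOAstro mice also carried CreER, a Cre recombinase that this drug activates, in a single copy of Slc1a3, an astrocyte glutamate transporter gene, and the ConAstro mice had no Cre. Mice ate a control diet, as 4 ConAstro and 7 cKOAstro, or from postnatal day 21 a diet with sulforaphane (SFN), a plant compound that activates the antioxidant transcription factor NRF2, as 5 SFN-fed ConAstro and 7 SFN-fed cKOAstro. There was 1 library for each of 23 mice, all labelled male, and p-values measure the spread between these libraries.

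Cells take up iron bound to transferrin through the transferrin receptor, move it out of the endosome through a divalent metal transporter, and store what they do not use inside shells of ferritin heavy and light chains. Surplus leaves through ferroportin, and ferritin can be broken down again when its receptor delivers it to the lysosome. When iron is low, the iron regulatory proteins bind hairpins called iron-responsive elements in messenger RNA: binding in a 5′ UTR blocks translation, as in ferritin and ferroportin, whereas binding in the 3′ UTR of the transferrin receptor keeps the messenger RNA from decay. RNA levels therefore do not show the translational arm of this system. Fth1, Ftl1 and Slc40a1 are also known as genes that NRF2 can induce. In the brain, oligodendrocytes and microglia hold much of the ferritin, and endothelial cells and macrophages, as well as glia, carry ferroportin.

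The hairpins that the search below found in 4 of these genes are shown because they set the genes read out by RNA stability apart from those read out by translation. The search covered the 5′ and 3′ UTRs of APPRIS principal transcripts of GENCODE M21 (GRCm38, also called mm10), on the sense strand. For the members it also covered their other basic coding transcripts. It looked for the loop CAGTGN flanked by an upper stem of 5 base pairs, with a single unpaired C just before the stem. The sequences below are 29 bases long, 5′ to 3′, with that C and the loop in capitals. The first 3 lie in 5′ UTRs and the last 4 in the 3′ UTR of Tfrc, at chr19:9982732-9982760 (plus strand), chr7:45459779-45459807 (minus), chr1:45925465-45925493 (minus), and, all on the plus strand, chr16:32631219-32631247, chr16:32631598-32631626, chr16:32631663-32631691 and chr16:32631710-32631738.
Fth1: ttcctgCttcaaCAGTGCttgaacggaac
Ftl1: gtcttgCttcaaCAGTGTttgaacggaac
Slc40a1: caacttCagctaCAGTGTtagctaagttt
Tfrc, hairpin 1: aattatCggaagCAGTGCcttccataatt
Tfrc, hairpin 2: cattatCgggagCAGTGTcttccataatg
Tfrc, hairpin 3: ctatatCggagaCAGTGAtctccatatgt
Tfrc, hairpin 4: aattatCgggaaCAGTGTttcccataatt

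Each hairpin lay within 1 exon. By principal transcripts alone, 23 of 21803 genes searched (0.105%) held a match in a 5′ UTR, 3 of them members. In a 3′ UTR 115 (0.527%) held one, 1 of them a member. A match is a description of the letters and not evidence of binding. The genes themselves lie at chr16:32608920-32632794 (Tfrc, plus strand), chr15:100387898-100425072 (Slc11a2, minus), chr13:23702034-23710854 (Hfe, minus), chr19:9980598-9985098 (Fth1, plus), chr7:45457944-45459884 (Ftl1, minus), chr14:32159865-32179855 (Ncoa4, plus), chr1:45908068-45926523 (Slc40a1, minus), chr4:40143081-40198338 (Aco1, plus) and chr9:54863789-54912530 (Ireb2, plus).

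Some libraries stand apart and are marked in the plot of values by library. Aldh7a1, measured first as the check of genotype, was at 214 ± 5.89 CPM (TMM-normalised counts scaled to library size; mean ± SD, n = 4) in ConAstro and at 59.2 ± 11.7 CPM (n = 7) in cKOAstro. SFN-fed ConAstro replicate 1 was at 55.7 CPM and SFN-fed cKOAstro replicate 2 at 222 CPM, against their genotype labels, so the SFN results of the members are given as labelled and, where it moves them, without this pair. Microglia markers also lay in the other's range, at 2647 CPM in the former and 324 CPM in the latter, and whether the 2 libraries were exchanged was not tested. If they were, the SFN values as labelled and the name series values over all 23 libraries mix the groups, and the values without the pair do not. One library labelled male, cKOAstro replicate 2, held Xist at 1541 CPM, while the others lay between 0.0837 and 0.706 CPM. Library names came in a series with numbers (17 libraries) and a series that begins with Astro (6 libraries: cKOAstro replicates 2 and 4, SFN-fed ConAstro replicate 1, SFN-fed cKOAstro replicates 4, 5 and 6). The labels do not say what the names mean, and ConAstro has no library with an Astro name. The numbered names begin with 143 in all 4 ConAstro libraries, with 141 or 146 in the 5 numbered cKOAstro libraries, with 145 or 147 in the 4 numbered SFN-fed ConAstro libraries, and with 143 (3 libraries) or 147 (1 library) in SFN-fed cKOAstro. The genotype difference on control diet and the diet difference in controls therefore cannot be told apart from this first part of the name, also among numbered names alone. Knockouts on control and SFN diet share the Astro names but no first part among numbered names. Their diet difference among numbered names therefore cannot be told apart from it either. Total counts lay between 46890715 and 391701247, and the lowest count of any member in any library was 856. Counting error was not set apart from the differences between mice. The defining astrocyte markers were present, Aqp4 at 389 to 934 CPM and Aldh1l1 at 263 to 448 CPM. Oligodendrocyte markers were also present: 8 of them summed to between 23189 and 59680 CPM, beside 13937 to 26379 CPM for 9 astrocyte markers. The preparations thus held RNA of other cells, and in such bulk samples fewer cells of a type and less RNA per cell cannot be told apart.

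**Figure D1:**
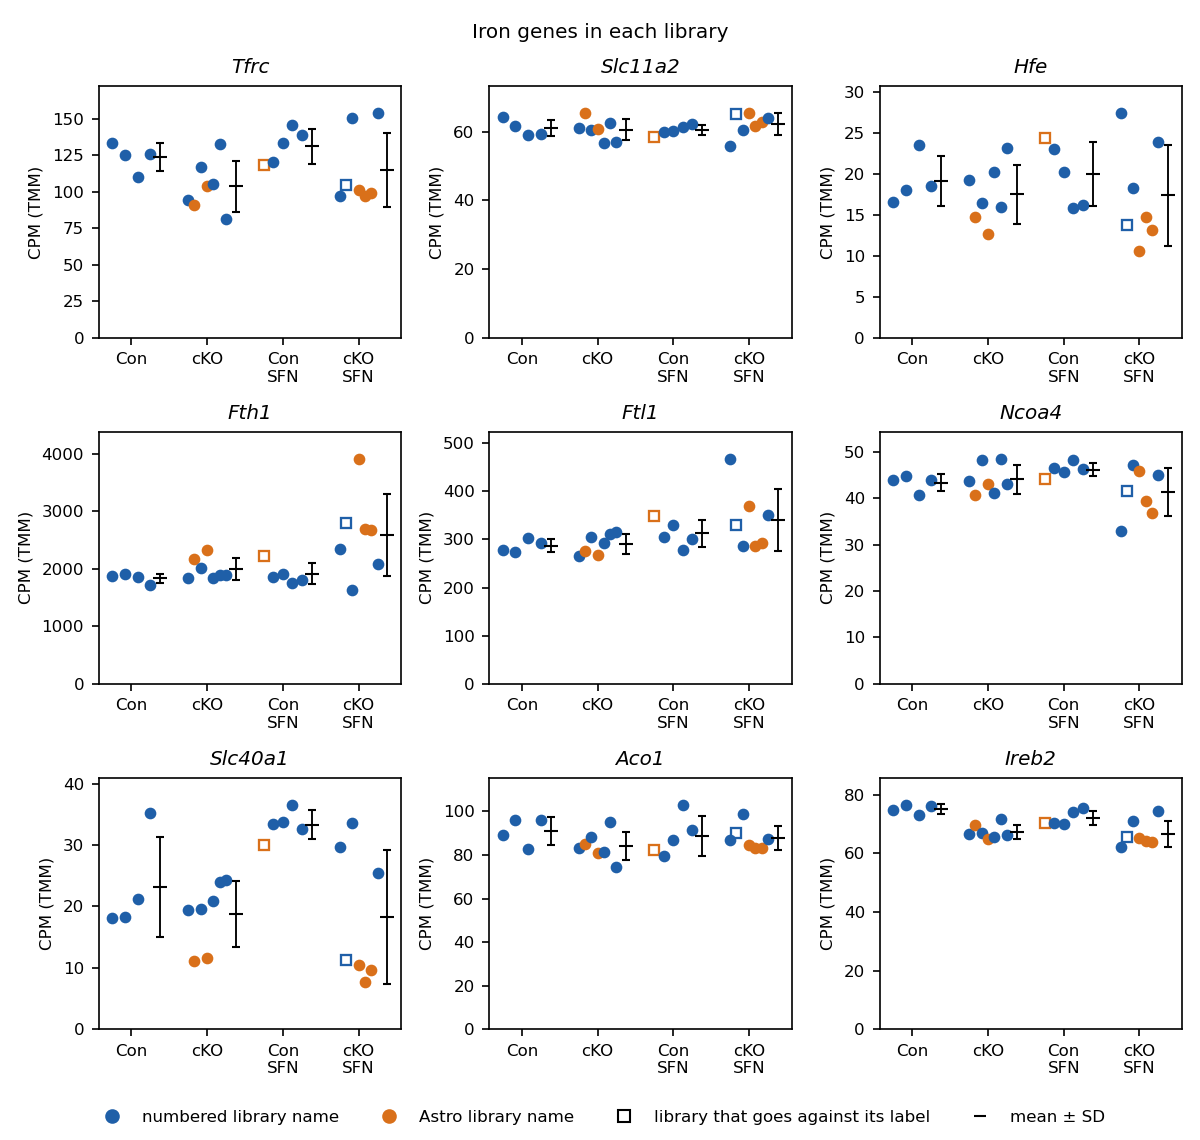
CPM (TMM-normalised, linear axis from 0) of each of the 9 genes in each library, with the 4 groups on the x axis (Con and cKO on control diet, then on SFN diet), orange for Astro names, blue for numbered names, open squares for the libraries that go against their Aldh7a1 label, and bars for mean ± SD of the group. In Slc40a1, the orange knockout libraries and the open square of SFN-fed cKOAstro lie at 7.64 to 11.7 CPM, below the other libraries, and Ireb2 in cKOAstro lies below ConAstro with no overlap.

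Per length of exon sequence, ferritin stood far above the other members. Fth1, the ferritin heavy chain, which oxidises iron as it enters the shell, averaged 613 ± 145 CPM per kilobase (SD, n = 23) and Ftl1, the light chain, which helps form the mineral core, averaged 231 ± 32.9 CPM per kilobase. The ranges of this pair did not overlap with each other or with those of the next genes. Aco1, a cytosolic aconitase that becomes iron regulatory protein 1 when it loses its iron-sulfur cluster, averaged 19.4 ± 1.53 CPM per kilobase, and Tfrc, the transferrin receptor, averaged 18.9 ± 3.27 CPM per kilobase. Their ranges overlapped. Slc11a2, the divalent metal transporter DMT1, averaged 9.62 ± 0.424 CPM per kilobase. Ireb2, iron regulatory protein 2, averaged 7.34 ± 0.469, Hfe, a membrane protein that binds the transferrin receptor, 5.11 ± 1.22, and Ncoa4, the receptor that carries ferritin to the lysosome, 4.66 ± 0.403 CPM per kilobase, each overlapping with its neighbour. Slc40a1, ferroportin, the iron exporter, was lowest, at 2.50 ± 1.04 CPM per kilobase. With the length of the longest principal transcript in place of all exons, Slc40a1 (6.68 CPM per kilobase) stood above Hfe (5.11 CPM per kilobase), and Ncoa4 (10.7 CPM per kilobase) above Slc40a1. The ferritin pair stayed first. In the exon scale the ratio of Fth1 to Ftl1 was 2.48 ± 0.192 in ConAstro and 2.67 ± 0.388 in cKOAstro. It was 2.36 ± 0.0887 in SFN-fed ConAstro and 2.99 ± 0.839 in SFN-fed cKOAstro. By name series it was 3.35 ± 0.557 in Astro and 2.42 ± 0.284 in numbered libraries. With the longest principal transcript the ratio was 4.16 ± 0.322 in ConAstro.

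**Figure D2:**
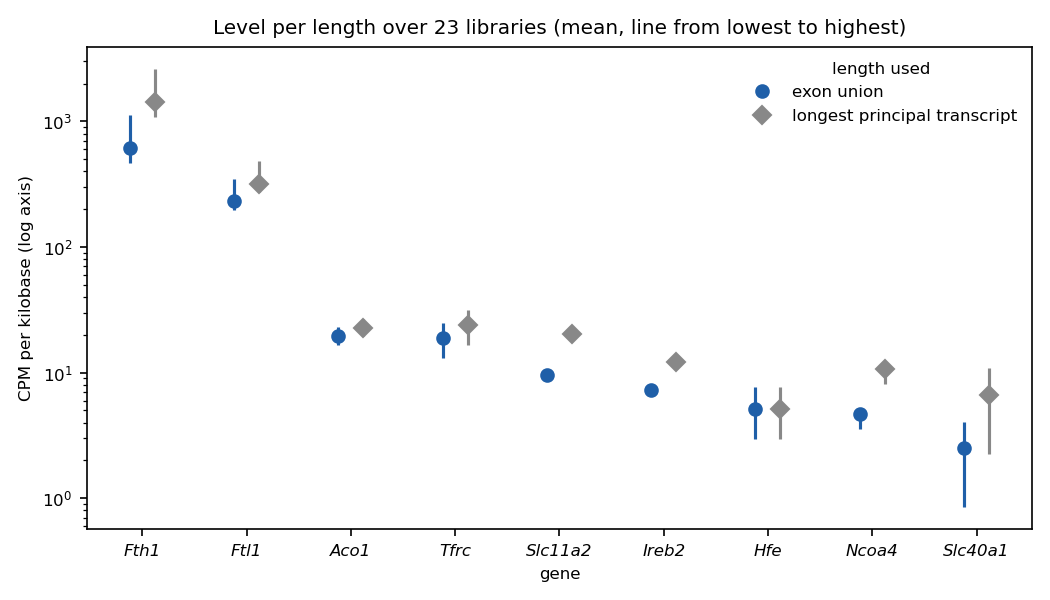
Level per length of the 9 genes (CPM per kilobase, log axis) as the mean of 23 libraries, with a line from the lowest to the highest library, using the exon union (blue circles) or the longest principal transcript (grey diamonds). Fth1 and Ftl1 lie above the other genes on both lengths, and Slc40a1 has the widest range relative to its level.

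No iron gene passed an adjusted p of 0.05 in any comparison of genotype or diet with edgeR, whether the libraries were taken as labelled or without the pair that goes against its labels. The background was as sparse. In cKOAstro against ConAstro, 4 of 17406 genes passed (0.023%). In SFN-fed cKOAstro against SFN-fed ConAstro 0 of 16672 passed (0%), and 2 of 16705 (0.012%) without the discordant pair. In SFN-fed ConAstro against ConAstro 0 of 16509 passed (0%), in SFN-fed cKOAstro against cKOAstro 0 of 16903 (0%), and in the interaction 0 of 17302 (0%), each also 0 without the pair. In SFN-fed cKOAstro against ConAstro 0 of 16753 passed (0%), and 2 of 16623 (0.012%) without it. By unadjusted p under 0.05, members counted 2 of 9 in cKOAstro against ConAstro (all genes 3.74%), 2 of 9 in SFN-fed cKOAstro against SFN-fed ConAstro (all genes 20.3%), 1 of 9 in SFN-fed ConAstro against ConAstro (6.54%), 2 of 9 in SFN-fed cKOAstro against cKOAstro (10.9%), 2 of 9 in SFN-fed cKOAstro against ConAstro (8.67%) and 0 of 9 in the interaction (7.32%). Without the discordant pair they counted 1 of 9 in SFN-fed cKOAstro against SFN-fed ConAstro (14.9%), 1 of 9 in SFN-fed ConAstro against ConAstro (8.41%), 1 of 9 in SFN-fed cKOAstro against cKOAstro (6.94%), 2 of 9 in SFN-fed cKOAstro against ConAstro (5.47%) and 0 of 9 in the interaction (8.32%). DESeq2 also called 0 of 9 in each, where of the genes with an adjusted p it called 8 of 20873 in cKOAstro against ConAstro (0.0383%), 250 of 16679 in SFN-fed cKOAstro against SFN-fed ConAstro (1.5%), 24 of 17146 in SFN-fed ConAstro against ConAstro (0.14%), 15 of 17055 in SFN-fed cKOAstro against cKOAstro (0.088%), 8 of 20437 in SFN-fed cKOAstro against ConAstro (0.0391%) and 3 of 21310 in the interaction (0.0141%). The median log2 fold change of the 9 members was -0.12 in cKOAstro against ConAstro, -0.11 in SFN-fed cKOAstro against SFN-fed ConAstro, 0.05 in SFN-fed ConAstro against ConAstro, 0.04 in SFN-fed cKOAstro against cKOAstro, -0.09 in SFN-fed cKOAstro against ConAstro and 0.05 in the interaction, beside medians of all genes between -0.01 and 0.01. The values below are therefore differences that did not pass the test across all genes, given with their intervals. Comparisons that share a group share its libraries and are not independent.

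**Figure D3:**
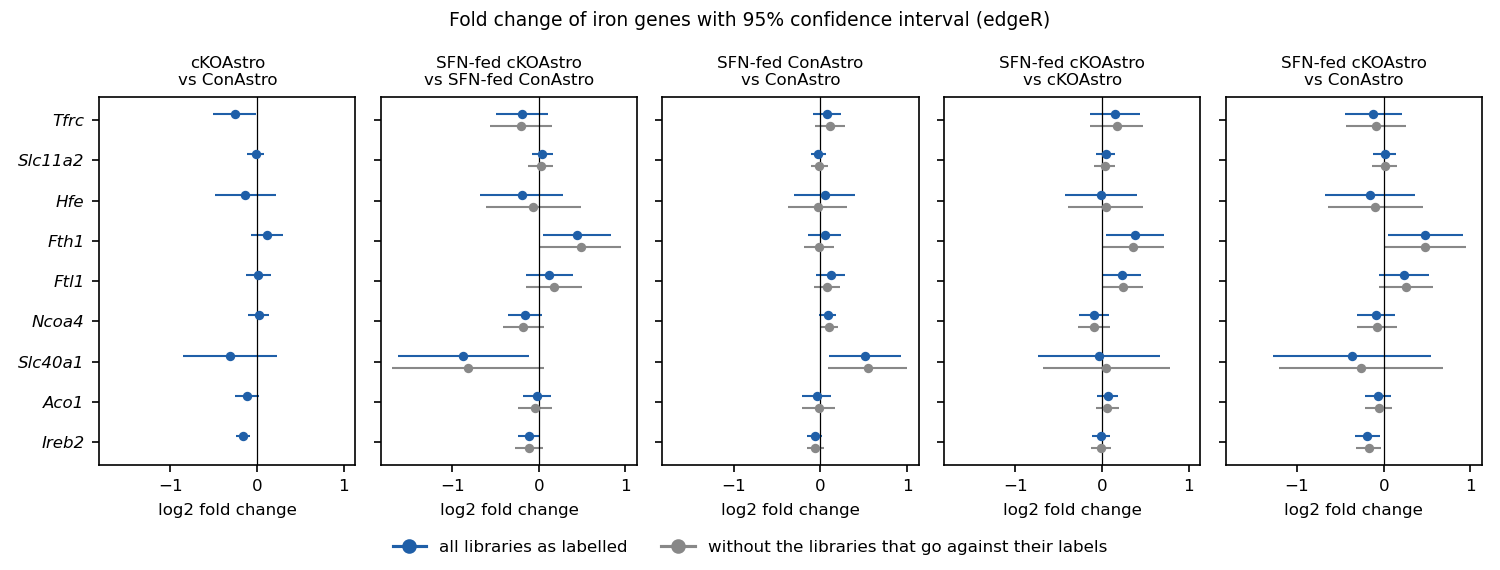
Log2 fold change of each gene (x axis) with its 95% confidence interval in the 5 comparisons of groups, from edgeR, with all libraries as labelled (blue) and without the libraries that go against their labels (grey). The intervals of Slc40a1 are the widest, followed by those of Hfe, in each of the 5 comparisons as labelled.

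Ireb2 is the iron regulatory protein that is degraded when iron is sufficient, so its activity is set mainly at the protein. Its RNA was at 74.8, 76.7, 73.0 and 76.3 CPM in ConAstro, and at 65.1, 66.6 and 71.8 CPM (lowest, median and highest) in cKOAstro. All 7 cKOAstro libraries lay below all 4 ConAstro libraries, a separation in this direction that 36 of 17406 genes had (0.207%) and that no other member had. The log2 fold change was -0.16 ± 0.04 (SE), or -10.7% with a 95% interval from -15.8 to -5.42% (edgeR, unadjusted p = 0.0011, adjusted p = 0.981). Leaving out 1 library at a time gave -0.18 to -0.15, numbered names alone -0.15 ± 0.04, and DESeq2 -0.16 with an adjusted p of 0.144. Without cKOAstro replicate 2, the library with Xist, it was -0.17 ± 0.04. No cKOAstro library shares the first part of its name with a ConAstro library, so no value within it could be had.

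On the SFN diet Ireb2 was at 70.5, 70.3, 70.1, 74.0 and 75.6 CPM in ConAstro and at 62.2, 65.2 and 74.4 CPM (lowest, median and highest) in cKOAstro. Here the groups overlapped, though 5 of 7 knockouts lay below every SFN-fed control, and the log2 fold change was -0.11 ± 0.06. SFN-fed cKOAstro differed from cKOAstro by -0.01 ± 0.05, with an interval from -0.12 to 0.09. Against ConAstro, SFN-fed cKOAstro differed by -0.19 ± 0.06 (edgeR, unadjusted p = 0.013, adjusted p = 0.557), and by -0.17 ± 0.07 without the discordant library. Among libraries whose names begin with 143 it differed by -0.18 ± 0.08, and by -0.16 ± 0.09 without the discordant one, which leaves 2 SFN-fed knockouts at 62.2 and 74.4 CPM. The interaction was 0.05 ± 0.07, and the same without the discordant pair.

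Aco1, the other iron regulatory protein, was at 89.2, 95.9, 82.6 and 96.2 CPM in ConAstro and at 74.4, 83.1 and 95.1 CPM (lowest, median and highest) in cKOAstro, groups that overlapped. Its log2 fold change was -0.12 ± 0.06, with an interval from -0.26 to 0.02. SFN-fed controls lay between 79.7 and 103 CPM and SFN-fed knockouts between 83.3 and 98.9 CPM, and log2 fold changes in the other comparisons of groups lay between -0.07 and 0.07 as labelled and between -0.06 and 0.06 without the discordant pair. The ratio of Ireb2 to Aco1 per length was 0.393 ± 0.0198 in ConAstro, 0.382 ± 0.0216 in cKOAstro, 0.389 ± 0.0299 in SFN-fed ConAstro and 0.361 ± 0.0221 in SFN-fed cKOAstro. The ranges of this ratio overlapped between all groups.

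Tfrc, whose messenger RNA carries the 3′ UTR hairpins shown above, was at 134, 125, 111 and 126 CPM in ConAstro and at 81.5, 104 and 133 CPM (lowest, median and highest) in cKOAstro. In cKOAstro 5 of 7 libraries lay below all ConAstro libraries, and the groups overlapped through the rest. The log2 fold change was -0.26 ± 0.11 (edgeR, unadjusted p = 0.041, adjusted p = 0.981), or -16.5% with an interval from -29.7 to -0.881%. Leaving out 1 library at a time gave -0.32 to -0.21.

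On SFN diet, Tfrc was at 118, 120, 133, 146 and 139 CPM in ConAstro and at 97.0, 102 and 154 CPM (lowest, median and highest) in cKOAstro. Of the SFN-fed knockouts, 5 lay below every SFN-fed control and 2, replicates 3 and 7, lay above every one, at 150.5 and 154 CPM. The log2 fold change was -0.19 ± 0.14, and -0.02 ± 0.16 among libraries with numbered names without the discordant one. SFN-fed ConAstro differed from ConAstro by 0.08 ± 0.07, and SFN-fed cKOAstro from cKOAstro by 0.15 ± 0.13. The latter was 0.07 to 0.23 when 1 library at a time was left out, 0.33 ± 0.18 among numbered names without the discordant library and 0.03 ± 0.10 among Astro names.

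Slc11a2 was the steadiest member, at 55.9 to 65.5 CPM over all 23 libraries. In the 5 comparisons of groups its log2 fold change lay between -0.02 and 0.04. In cKOAstro against ConAstro it was -0.02 ± 0.05, with an interval from -0.12 to 0.08, or -7.98 to 5.85%. No searched transcript of Slc11a2 matched the strict hairpin pattern above, and its other transcripts were not searched.

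Fth1 was at 1869, 1899.5, 1851 and 1722 CPM in ConAstro and at 1833, 1892 and 2328 CPM (lowest, median and highest) in cKOAstro. It was at 2216, 1858, 1910.5, 1748 and 1806 CPM in SFN-fed ConAstro and at 1627, 2665 and 3912 CPM (lowest, median and highest) in SFN-fed cKOAstro. The spread in the last group was wider than in the others: 1 library lay below every SFN-fed control and 5 lay above every one. The sum of 8 oligodendrocyte markers was at 25943 to 59680 CPM (median 35365) in SFN-fed cKOAstro. In SFN-fed ConAstro it was at 23189 to 32696 CPM (median 31367). SFN-fed cKOAstro replicate 4 was highest both in Fth1 and in these markers, and replicate 3 lowest in both among its group. Over the 16 numbered libraries without the discordant one, Fth1 was set against the mean log2 level of these markers, not their sum, as deviations from group means. Pearson's r was 0.22 and rho 0.09 (permutation test, adjusted p = 0.60 and 0.83). The Astro libraries, replicate 4 among them, were not in this relation. Mbp, 1 of the 8 markers, gave r = 0.84 with Fth1 over the 17 numbered libraries and 0.94 over all 23. It is singled out here as the gene most like Fth1, as described below. The part of oligodendrocyte RNA in the Fth1 difference was not tested. The log2 fold change in SFN-fed cKOAstro was 0.44 ± 0.18 against SFN-fed ConAstro (edgeR, unadjusted p = 0.030, adjusted p = 0.217), 0.38 ± 0.16 against cKOAstro (adjusted p = 0.459) and 0.48 ± 0.20 against ConAstro (adjusted p = 0.557). Without the discordant libraries these were 0.48 ± 0.21, 0.36 ± 0.17 and 0.48 ± 0.21.

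The Fth1 differences moved with the name series. Among numbered names without the discordant libraries they were 0.12 ± 0.13, 0.08 ± 0.12 and 0.11 ± 0.13. Without SFN-fed cKOAstro replicate 4, which held the highest level, they were 0.29, 0.25 and 0.35. Among Astro names alone, SFN-fed cKOAstro differed from cKOAstro by 0.46 ± 0.23, so this difference shrank within numbered names and not within Astro names. Against ConAstro, among names that begin with 143, the difference was 0.37 ± 0.12, and 0.24 ± 0.10 without the discordant library. In SFN-fed ConAstro against ConAstro, Fth1 differed by 0.05 ± 0.09, and by -0.01 ± 0.08 without the discordant library.

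Ftl1, the other ferritin chain, was at 279, 273, 303 and 292 CPM in ConAstro and at 266, 293 and 316 CPM (lowest, median and highest) in cKOAstro, a difference of 0.01 ± 0.07 on the log2 scale. It was at 348, 306, 330.0, 278 and 300.4 CPM in SFN-fed ConAstro and at 286, 330.5 and 468 CPM (lowest, median and highest) in SFN-fed cKOAstro. The highest library was SFN-fed cKOAstro replicate 1, a library with a numbered name, and the groups overlapped. SFN-fed cKOAstro differed from cKOAstro by 0.23 ± 0.10 (edgeR, unadjusted p = 0.040, adjusted p = 0.459), and by 0.15 without replicate 1. Among numbered names without the discordant library the difference was 0.29 ± 0.14. Against ConAstro it was 0.23 ± 0.13 over all libraries and, among names that begin with 143, 0.40 ± 0.12, or 0.48 ± 0.13 without the discordant library (edgeR, adjusted p = 0.597). Unlike those of Fth1, these estimates did not shrink toward 0 within the numbered names.

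Ncoa4, which hands ferritin to the lysosome, was at 43.9, 44.9, 40.8 and 44.1 CPM in ConAstro and at 44.2, 46.6, 45.6, 48.2 and 46.4 CPM in SFN-fed ConAstro. The lowest of the latter was the discordant library. Without it all 4 SFN-fed controls lay above all controls, which 408 of 16509 genes did (2.47%). The log2 fold change was 0.10 ± 0.04 without it (edgeR, adjusted p = 0.606). In the knockouts Ncoa4 lay between 40.7 and 48.6 CPM on control diet and between 33.0 and 47.1 CPM on SFN, with a difference of -0.09 ± 0.08, and the interaction was -0.18 ± 0.11 (interval from -0.41 to 0.04), or -0.20 ± 0.12 without the discordant pair.

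Slc40a1 varied most. In ConAstro it was at 18.2, 18.3, 21.2 and 35.2 CPM, with replicate 4 apart from the rest, and in cKOAstro at 11.1, 19.6 and 24.3 CPM (lowest, median and highest). In SFN-fed ConAstro it was at 30.0, 33.5, 33.7, 36.6 and 32.5 CPM, and in SFN-fed cKOAstro at 7.64, 11.3 and 33.5 CPM (lowest, median and highest). Within SFN-fed cKOAstro the libraries fell apart: replicates 1, 3 and 7, with numbered names and low Aldh7a1, were at 29.7, 33.5 and 25.4 CPM, and the other 4 at or below 11.3 CPM.

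For the genotype, Slc40a1 differed by -0.31 ± 0.25 on the log2 scale in cKOAstro against ConAstro, and by -0.04 without ConAstro replicate 4. In SFN-fed cKOAstro against SFN-fed ConAstro it differed by -0.87 ± 0.35 (edgeR, unadjusted p = 0.028, adjusted p = 0.212). This was -0.81 ± 0.40 without the discordant libraries and -0.22 ± 0.10 when numbered names alone were kept as well (unadjusted p = 0.062).

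For the diet, SFN-fed ConAstro differed from ConAstro in Slc40a1 by 0.51 ± 0.18 (edgeR, unadjusted p = 0.020, adjusted p = 0.762), or 42.6% with an interval from 7.10 to 90.0%. All 5 SFN-fed controls lay above 3 of the 4 controls. Leaving out 1 library at a time gave 0.41 to 0.78. The highest of these came without ConAstro replicate 4 (edgeR, unadjusted p = 1.23e-05, adjusted p = 0.102). Without ConAstro replicate 1, and likewise without replicate 2, 0 of 9 members had an unadjusted p under 0.05. In cKOAstro the diet difference was -0.04 ± 0.33 over all libraries, 0.44 ± 0.12 among numbered names without the discordant library (unadjusted p = 0.0038, adjusted p = 0.362) and -0.30 ± 0.18 among Astro names, with 3 SFN-fed against 2 control-diet libraries. The sum of 8 endothelial markers moved beside the diet difference in controls, at 215 to 564 CPM in ConAstro and 456 to 725 CPM in SFN-fed ConAstro, and its highest value in ConAstro, in replicate 4, was in the range of the SFN-fed libraries. The sum of 6 fibroblast markers was at 125 to 136 CPM in ConAstro and 141 to 187 CPM in SFN-fed ConAstro, without overlap, and that of 5 border macrophage markers at 127 to 305 CPM (median 154) and 173 to 285 CPM (median 257). In the knockouts the endothelial sum was at 208 to 302 CPM (median 259) in cKOAstro and 168 to 734 CPM (median 264) in SFN-fed cKOAstro. The highest of these came from a library with a numbered name. The part of these cells in the Slc40a1 differences was not tested. In controls and in knockouts alike, the numbered libraries of the 2 diets share no first part of their names. Among them the diet cannot be told apart from it.

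Hfe was at 16.5, 18.0, 23.5 and 18.5 CPM in ConAstro and at 12.6, 16.4 and 23.2 CPM (lowest, median and highest) in cKOAstro. On SFN it was at 24.4, 23.03, 20.1, 15.8 and 16.2 CPM in ConAstro and at 10.6, 14.7 and 27.4 CPM in cKOAstro. All groups overlapped, and with the libraries as labelled the 5 comparisons of groups gave log2 fold changes of -0.20 to 0.05, with standard errors of 0.16 to 0.24. The difference between SFN-fed cKOAstro and SFN-fed ConAstro was -0.20 ± 0.22 as labelled, -0.06 ± 0.25 without the discordant pair and 0.28 ± 0.18 among numbered names without it. SFN-fed cKOAstro differed from cKOAstro by -0.01 ± 0.20 and from ConAstro by -0.15 ± 0.24 as labelled, and by 0.27 ± 0.16 and 0.25 ± 0.17 among numbered names without the discordant library. The sign of the Hfe difference in SFN-fed knockouts thus turned with the name series, and no value passed.

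Some members that did not pass in any comparison of genotype or diet passed between the name series. With group and name series in 1 edgeR fit, chosen after the data were seen, 1023 of 17302 genes passed between Astro and numbered names (5.91%), and 2 of the 9 members. Without the discordant libraries 2992 of 17264 passed (17.3%), and 3 members. Slc40a1 was lower in Astro names by -0.96 ± 0.20 over all libraries (adjusted p = 0.022) and by -1.28 ± 0.16 without the discordant ones (adjusted p = 3.88e-05), or -58.9%. Fth1 was higher, by 0.36 ± 0.09 (adjusted p = 0.034) and 0.45 ± 0.11 (adjusted p = 0.0062), or 37.1%. Hfe was lower by -0.66 ± 0.14 without the discordant libraries (adjusted p = 0.0021) and by -0.37 ± 0.16 with them (adjusted p = 0.143). In Slc40a1, as in the microglia markers, both discordant libraries lay in the range of the other series: SFN-fed ConAstro replicate 1, with an Astro name, held Slc40a1 at 30.0 CPM and SFN-fed cKOAstro replicate 2, with a numbered name, at 11.3 CPM. The remaining 6 members gave log2 differences of -0.27 to 0.09 without the discordant libraries and did not pass.

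**Figure D4:**
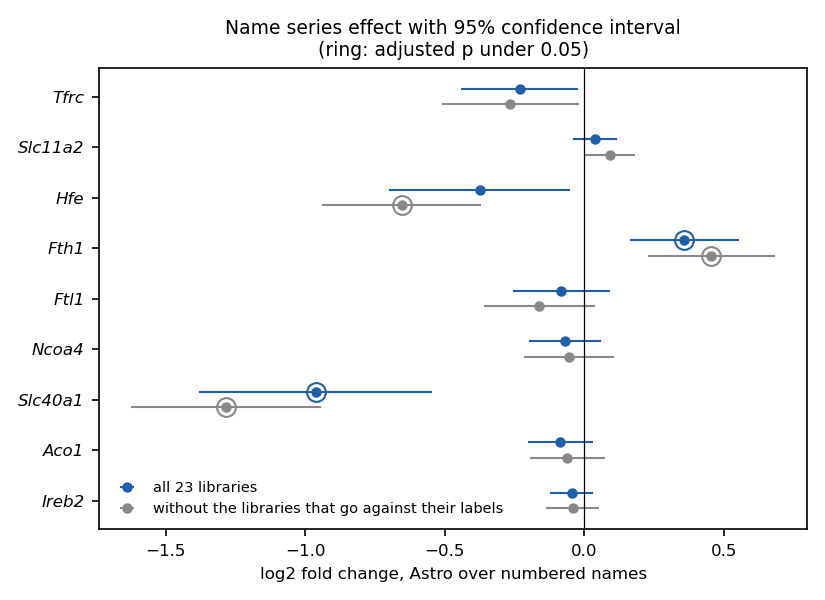
Log2 fold change of Astro over numbered names (x axis) with its 95% confidence interval for each gene, with the group as a term, over all 23 libraries (blue) and without the libraries that go against their labels (grey), with a ring where the adjusted p was under 0.05. Slc40a1 and Fth1 carry a ring in both fits, Hfe in the fit without the discordant libraries, and Ireb2, Slc11a2, Aco1 and Ncoa4 lie near 0.

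Markers of other cells moved with the name series beside these members. Without the discordant libraries, 9 of 9 microglia markers were lower in Astro names (median log2 difference -2.59), as were 4 of 5 border macrophage markers (-1.32), 2 of 8 endothelial markers (-0.57) and 3 of 5 oligodendrocyte precursor markers (-0.96), and 3 of 8 oligodendrocyte markers were higher (0.37). None of 9 astrocyte markers passed (-0.09). Of the other lists, 3 of 6 fibroblast, 2 of 9 dissociation response, 1 of 6 choroid plexus and ependyma and 1 of 7 mural genes were lower, and 1 of 8 neuron genes was higher. With all 23 libraries 0 of 9 microglia markers passed (-1.49). Microglia markers summed to 285 to 513 CPM in the concordant Astro libraries and to 844 to 3090 CPM in the concordant numbered ones. For red blood cells, 4 of 5 markers were at 0 in every library. The part of any of these cell types in the iron gene differences was not tested, and because the Astro names include no ConAstro library, name series and group are not crossed in full. Without the discordant libraries every Astro library left is a knockout, with cKOAstro replicate 2, the library with Xist, among them. The name series values of that fit therefore come from knockouts alone and give no value for controls.

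Among the 17 libraries with numbered names, each member was also set against the mean log2 level of 11 marker lists, as deviations from group means, which gave 99 relations. By Pearson's r, 5 passed an adjusted p of 0.05 (permutation test, two-sided, 100000 permutations). Hfe followed the microglia markers (r = 0.88, rho = 0.85, permutation p = 1e-05 for r, the smallest it can give, and 3e-05 for rho, adjusted p = 0.00099 and 0.0030). Without the 2 libraries farthest from the median of the markers r was 0.77, and over the 16 concordant libraries it was 0.81 (rho = 0.81, adjusted permutation p = 0.021 for r and 0.025 for rho). The next was Aco1 with the astrocyte markers (r = 0.74, rho = 0.67, permutation p = 0.00082 and 0.0042, adjusted p = 0.031 and 0.097), with r = 0.62 without the 2 farthest.

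Slc40a1 followed the endothelial markers by r alone (r = 0.71, rho = 0.56, permutation p = 0.0012 and 0.020, adjusted p = 0.031 and 0.124), with r = 0.50 without the 2 farthest libraries and 0.75 over the 16 concordant ones. It also followed the genes of the response to tissue dissociation (r = 0.74, rho = 0.60, permutation p = 0.00099 and 0.013, adjusted p = 0.031 and 0.118), but with r = 0.45 without the 2 farthest, and that relation did not pass over the 16 libraries. The last of the 5, Hfe with border macrophage markers (r = 0.71, rho = 0.57, permutation p = 0.0019 and 0.019, adjusted p = 0.037 and 0.123), fell to r = 0.51 without the 2 farthest and did not pass over 16 either. Over the 16 libraries Aco1 ran against the microglia markers (r = -0.75, rho = -0.79, permutation p = 0.00097 and 0.00055, adjusted p = 0.032 and 0.025), with r = -0.65 without the 2 farthest. Tfrc followed the astrocyte markers over the 16 by r (r = 0.70, rho = 0.67, permutation p = 0.0025 and 0.0055, adjusted p = 0.049 and 0.090), with r = 0.53 without the 2 farthest. Ftl1 followed the border macrophage markers over the 16 by rho alone (r = 0.67, rho = 0.76, permutation p = 0.0045 and 0.00076, adjusted p = 0.066 and 0.025).

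**Figure D5:**
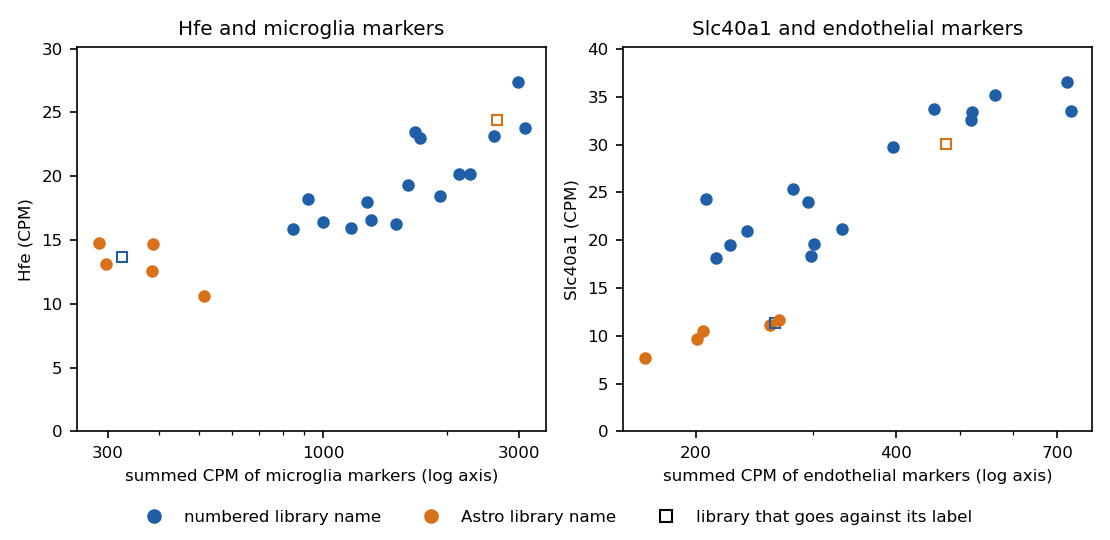
CPM of Hfe against the summed CPM of 9 microglia markers (left) and of Slc40a1 against the summed CPM of 8 endothelial markers (right), with a log x axis and a linear y axis from 0, 1 point per library, orange for Astro names, blue for numbered names and open squares for the libraries that go against their labels. The concordant Astro libraries lie at 285 to 513 CPM of microglia markers and the concordant numbered libraries at 844 to 3090 CPM.

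The genes most like 4 of the members were found by Pearson's r of deviations from group means over the 23 libraries, among 14181 genes, as a description. For Slc40a1 they were Elk3 (r = 0.96), Lmo2 (r = 0.95) and Sp100 (r = 0.95), all of them encoding nuclear regulators of transcription. For Fth1 they were Mbp (r = 0.94), Ik (r = 0.93) and Adi1 (r = 0.93). Mbp, which encodes myelin basic protein, is among the oligodendrocyte markers above. For Ftl1 they included Fau (r = 0.96) and Rps3a1 (r = 0.96), which encode proteins of the small ribosomal subunit. For Tfrc they included Gpd2 (r = 0.92) and Tmem56 (r = 0.91). The libraries share name series, depth and cell makeup, so the values describe a common pattern and not a common control. The heavy and the light chain of ferritin thus had different nearest genes.

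Of 67 other genes of iron and heme handling, 63 or 64 could be tested in each comparison, and 0 passed in any of the 6 with edgeR. In cKOAstro against ConAstro, 2 of 64 were higher and 3 lower at an unadjusted p under 0.05, and the median log2 fold change of the 64 was -0.002. The lowest p-values were those of Slc39a8, a metal importer (-0.59 ± 0.21), Mfsd7c, also called Flvcr2 (-0.25 ± 0.09), and Cp, ceruloplasmin, a copper oxidase that helps ferroportin load transferrin (0.22 ± 0.08), each with an adjusted p of 0.981. In SFN-fed ConAstro against ConAstro, Cp differed by 0.32 ± 0.09, Uros, an enzyme of heme synthesis, by -0.24 ± 0.06, and Slc39a14, an iron and zinc importer, by -0.21 ± 0.06 (adjusted p = 0.762 for each). At an unadjusted p under 0.05, 3 of 63 were higher and 6 lower there, with a median of -0.02.

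Set against SFN-fed ConAstro, SFN-fed cKOAstro had 8 of 64 with a higher and 6 with a lower level at an unadjusted p under 0.05, and a median of 0.11. Set against cKOAstro it had 6 with a higher and 4 with a lower level, and a median of 0.05. Fdxr, which passes electrons into iron-sulfur cluster assembly, differed from SFN-fed ConAstro by 0.39 ± 0.10, Glrx5, a mitochondrial glutaredoxin that relays iron-sulfur clusters, by 0.29 ± 0.09, and Abcb6, a porphyrin transporter, by 0.20 ± 0.05 (adjusted p = 0.195 for each). Against cKOAstro, Abcb6 differed by 0.21 ± 0.05, Bmp6, a signal that induces hepcidin, by -0.56 ± 0.17, and Tfr2, the second transferrin receptor, by -0.73 ± 0.29 (adjusted p = 0.459 for each). DESeq2 called Fdxr and Abcb6 in the first of these comparisons (adjusted p = 0.037 and 0.014) and Abcb6 in the second (adjusted p = 0.0057), beside 1.5% and 0.088% of all genes. In the first, edgeR without SFN-fed cKOAstro replicate 3 called 3 of 64, beside 701 of 16604 genes (4.22%), so this count is near the background.

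For SFN-fed cKOAstro against ConAstro the counts at an unadjusted p under 0.05 were 2 of 64 up and 4 down, and the median was 0.06. The lowest p-values there were those of Ciao1, of the cytosolic iron-sulfur pathway (0.18 ± 0.07), Glrx5 (0.24 ± 0.10) and Lrp1, a receptor that takes up hemopexin with heme (-0.37 ± 0.15), each with an adjusted p of 0.557. In the interaction, 4 of 64 were higher and 2 lower, with a median of 0.10, led by Abcb6 (0.26 ± 0.07), Cp (-0.62 ± 0.19) and Uros (0.27 ± 0.11), each with an adjusted p of 0.673.

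By list, in SFN-fed cKOAstro against SFN-fed ConAstro, the 12 genes of the transferrin cycle and other uptake had a median log2 fold change of -0.35, with 0 higher and 3 lower at an unadjusted p under 0.05. The 7 genes of efflux and systemic signals had a median of -0.07, with 0 higher and 1 lower. The 7 genes of sensing and chaperones had a median of 0.14 (2 higher, 0 lower), the 17 of mitochondrial iron and iron-sulfur clusters 0.14 (3 higher, 1 lower) and the 21 of heme synthesis, transport and breakdown 0.12 (3 higher, 1 lower). In this comparison 20.3% of all genes had such a p, so the 8 and 6 of 64 are near the background. In cKOAstro against ConAstro the medians of the 5 lists lay between -0.04 and 0.04.

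Without the discordant pair edgeR again called 0 of these genes. The counts at an unadjusted p under 0.05 became 7 higher and 2 lower of 64 in SFN-fed cKOAstro against SFN-fed ConAstro, 2 and 6 of 62 in SFN-fed ConAstro against ConAstro, 3 and 2 of 64 in SFN-fed cKOAstro against cKOAstro, 2 and 1 of 64 in SFN-fed cKOAstro against ConAstro and 2 and 1 of 64 in the interaction. The list of the transferrin cycle and other uptake moved most, from a median of -0.35 to -0.04 in SFN-fed cKOAstro against SFN-fed ConAstro, with 1 higher and 0 lower. The genes named above kept their sign: Fdxr was at 0.43 ± 0.12, Glrx5 at 0.32 ± 0.11 and Abcb6 at 0.22 ± 0.07 in that comparison (adjusted p = 0.310 for each), and Abcb6 at 0.21 ± 0.05, Bmp6 at -0.57 ± 0.19 and Tfr2 at -0.68 ± 0.31 against cKOAstro (adjusted p = 0.662 for each). In SFN-fed ConAstro against ConAstro, Cp was at 0.36 ± 0.09, Uros at -0.24 ± 0.07 and Slc39a14 at -0.23 ± 0.05. Against ConAstro, SFN-fed cKOAstro differed in Ciao1 by 0.16 ± 0.07, in Glrx5 by 0.24 ± 0.10 and in Lrp1 by -0.33 ± 0.16, and the interaction was 0.28 ± 0.07 for Abcb6, -0.64 ± 0.20 for Cp and 0.24 ± 0.12 for Uros.

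Between the name series, 4 of 64 of these genes passed over all libraries, 1 higher and 3 lower, beside 5.91% of all genes, and 6 without the discordant libraries, 2 higher and 4 lower, beside 17.3% of all genes. Neither count is above the background by more than 1 gene, and the genes are given as values. Slc39a8 was lower in Astro names in both fits (-0.98 ± 0.21 and -1.27 ± 0.19), as were Blvrb, biliverdin reductase B (-0.36 ± 0.10 and -0.50 ± 0.10), and Steap3, an endosomal iron reductase (-0.35 ± 0.10 and -0.39 ± 0.11), and Fbxl5, the ubiquitin ligase subunit that targets Ireb2 protein, was higher in both (0.20 ± 0.06 and 0.22 ± 0.06). Without the discordant libraries Heph, hephaestin, a ceruloplasmin homologue, was higher (0.68 ± 0.19) and Hmox1, heme oxygenase 1, was lower (-0.39 ± 0.13).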

How the data were processed

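Per the labels and the study's methods, astrocytes were bound with anti-ACSA-2 beads, polyadenylated RNA was sequenced in read pairs, and the authors checked reads with FastQC and aligned them to mm10 with STAR, which also counted reads per gene. The authors deposited raw counts per gene symbol, not normalized and not pooled. Versions, annotation and the use of strand are not given in the sources used here, so overlapping antisense genes and near-identical copies are uncertain. No other row began with Fth1 or Ftl1.

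edgeR 4.0.16 (R 4.3.3) gave the main test, by quasi-likelihood on the deposited counts, with TMM normalization and filterByExpr (minimum count 10, minimum total 15), on the 2 groups compared, or on all groups for the interaction. Benjamini-Hochberg adjustment ran across every gene that passed the filter, and a call means an adjusted p under 0.05. Fold changes are log2 ± SE with 95% intervals, and CPM are TMM-scaled from the deposited counts. The fits were also run on counts simulated for cKOAstro against ConAstro alone, without a name series effect. The outcome is not reported here. Gene lengths and UTRs are from GENCODE M21 (GRCm38).

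The members and the gene lists were chosen with earlier results of these data known. Named genes were the 9 members, in each comparison the genes of 5 iron and heme lists past the threshold or else the 3 with the lowest p-values, the 3 genes most like Tfrc, Fth1, Ftl1 and Slc40a1 (mean CPM of at least 1), Aldh7a1, and Xist, which was added after its values were seen. Of the genes most like Tfrc and Ftl1, 1 each is not reported here. Those past the threshold in the name series or in an alternative were named as well. Alternatives were DESeq2 1.42.0, RLE normalization, no filter, 1 fit of all groups, leaving out the libraries that go against their labels, the name series as a filter or a term, the replicate number as a block, and leaving out each library. The name series fit, the Astro names alone, numbered names without discordant libraries, names that begin with 143, the iron and heme lists without discordant libraries and the principal transcript length were chosen after seeing the data.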

Additional observations from a re-analysis of the deposited data

Results flagged for a closer look

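Aco1 in SFN-fed cKOAstro replicate 3, at 98.9 CPM, lay farther from the rest of its group (83.3 to 89.9 CPM) than Dixon's test allows. It was 1 such value in 36 groups of 4 to 7 libraries (9 genes in 4 groups), and chance gives about 5%.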

How the results depend on the processing

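The count of members called was 0 in each of the 6 comparisons under every alternative run, and the lowest adjusted p of any member was 0.061 (Fth1 in SFN-fed cKOAstro against SFN-fed ConAstro, without SFN-fed cKOAstro replicate 3). Of other iron and heme genes, DESeq2 called 2 in SFN-fed cKOAstro against SFN-fed ConAstro and 1 in SFN-fed cKOAstro against cKOAstro, where edgeR called 0. Leaving out 1 library at a time gave 0 to 3 in the former (3, Steap2, Fdxr and Urod, without SFN-fed cKOAstro replicate 3, where 701 of 16604 genes, 4.22%, were called). The cause was not tested. The fold change of a member changed sign in 32 of 720 fits that left out a library and in 44 of 477 other fits, none of which passed. Replicate numbers in the labels are names: correlations of same-numbered libraries ran from -0.21 to 0.34, and those of libraries with different numbers from -0.40 to 0.47. With the replicate block 0 members and 0 other iron genes were called. Each member had at least 856 counts in every library, and counting error was not set apart from the spread between mice.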
